A study of Arabidopsis thaliana with 14 samples.

Results

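Wild-type Arabidopsis thaliana seedlings grown in darkness and then moved to light for 2 h (Col_DL, 2 arrays) were compared with wild-type seedlings kept in darkness (Col, 2 arrays). These 4 of the 14 arrays of the series were chosen by their titles. All 4 samples were whole seedlings of the accession Col at an age of 7 days, they carry no mutation or transgene according to the labels, and none received hormone. A pair of further settings serve only for comparison. The first is the same step into light after treatment with brassinosteroid hormone, called BL (brassinolide) in some labels and BR in others and given at an unstated dose, with 2 h of light in Col_BR_DL and darkness in Col_BL, also at 7 days. The second is det2, a mutant labelled as deficient in brassinosteroid, grown for 7 days in light (det2_light) or in darkness (det2_dark). Each group had 2 arrays, numbered 1 and 2 in the titles, and the last group of the series, det2 grown in light to 14 days and then kept dark for 8 h, only adds to the estimate of the spread. Light colour and intensity, the hour of sampling and the number of seedlings per sample are not given in the labels. No wild-type group was moved without being lit, so light cannot be told apart from heat, handling or the hour of harvest that may have come with the move.

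Seedlings that germinate in darkness are etiolated: the hypocotyl elongates, the cotyledons stay closed and pale, and the plastids hold no photosynthetic membranes. On the first exposure to light, phytochromes and cryptochromes relieve the repression that the COP1 ubiquitin ligase and the PIF factors exert in darkness. Factors such as HY5 and its relative HYH then act on genes of the photosynthetic apparatus, of chlorophyll and of pigments that screen ultraviolet light, while the growth programme of the dark seedling, much of it driven by auxin, is turned down.

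Signals are linear array intensities, deposited by the authors and brought to a common level of 500, and changes are differences of log2(signal + 16), Col_DL minus Col, with a standard error from a limma fit over all 14 arrays. A probe set is said to rise or fall where its Benjamini-Hochberg adjusted p was below 0.05. Of 17787 probe sets tested, 3526 (19.8%) passed, 1790 upward (10.1%) and 1736 downward (9.76%). Fitted on the 4 arrays alone, 1647 passed, or 3607 with a replicate block. The median array signal in the series lay between 187.6 and 218.8, and the 2 arrays of a group correlated at 0.964 in Col_DL and 0.965 in Col (Pearson, across probe sets). The precision of every value is limited by there being 2 arrays a group, and nothing in the labels says that the replicates were separate cultures.

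Rises reached further than falls. At least 2-fold changes numbered 1118 among the rises and 652 among the falls, and at least 8-fold changes 81 and 12. Of the 24 probe sets that rose at least 16-fold, 5 match 1 gene and the others match no single gene here. All 3526 calls went the same way in replicate 1 as in replicate 2 and none overlapped between the groups, where 72.2% of all probe sets tested went the same way and 53.1% did not overlap. Groups that do not overlap must move the same way in both numbers, and a call favours such probe sets. Neither count is therefore separate support for the calls. Set against each other across probe sets, the changes of both replicate numbers had a correlation of 0.752.

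**Figure D1:**
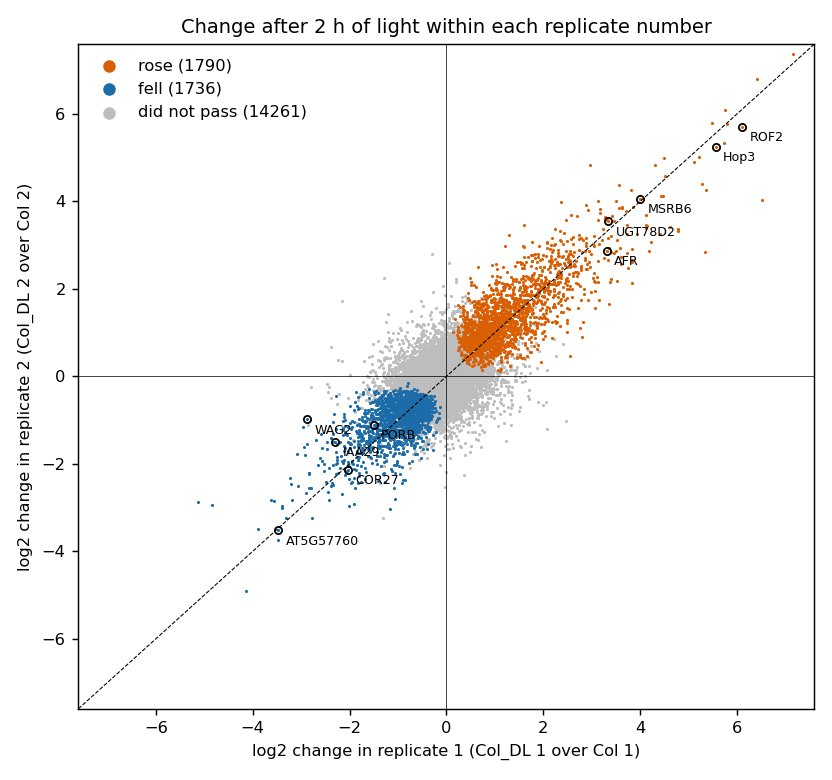
Change after 2 h of light for each of the 17787 probe sets tested, with the log2 change within replicate 1 on the x axis and within replicate 2 on the y axis; orange points rose, blue points fell and grey points did not pass, and the dashed line marks equal changes. The 1790 rises and 1736 falls all lie in the quadrants where both replicates moved the same way, and ROF2 stands at 6.11 and 5.71.

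Among probe sets that match 1 gene, the largest rises with a gene name were those of chaperone genes. Over all probe sets the log2 changes ran from -4.52 to 7.26, and probe sets that match no single gene are not listed. ROF2 (AT5G48570), a peptidyl-prolyl isomerase of the FKBP family that is induced by heat, read 5234 and 2725 signal units in Col_DL, against 59.8 and 36.3 in Col. That is a 60.3-fold difference (log2 5.91 ± 0.35, adjusted p = 1.97e-07). Hop3 (AT4G12400), which links the chaperones Hsp70 and Hsp90, read 2366 and 1545 in Col_DL, against 34.3 and 24.9 in Col, a log2 change of 5.41 ± 0.44. In both genes the 2 dark arrays were near the bottom of the scale and both light arrays far above them. MSRB6 (AT4G04840), a methionine sulfoxide reductase that repairs oxidised protein, read 1249 and 1245 in Col_DL, against 62.9 and 59.3 in Col (log2 4.03 ± 0.24), and here both pairs of replicates lay close together. Of the 12 largest rises among probe sets that match 1 gene, the other 9 are given by locus identifier alone. Their roles were not looked up here, and they stand in none of the gene groups below. ROF2 itself has no symbol in the annotation used and is named by a synonym. AT5G51440 read 2711 and 2176 in Col_DL, against 57.3 and 51.6 in Col, AT5G12110 read 3992 and 3898 in Col_DL, against 158 and 147 in Col and AT3G56290 read 2543 and 2392 in Col_DL, against 131 and 169.9 in Col. The remaining 6 (AT1G48100, AT1G53540, AT3G57020, AT1G60590, AT5G42760 and AT2G20560) rose by between 3.70 and 3.83 on the log2 scale.

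**Figure D2:**
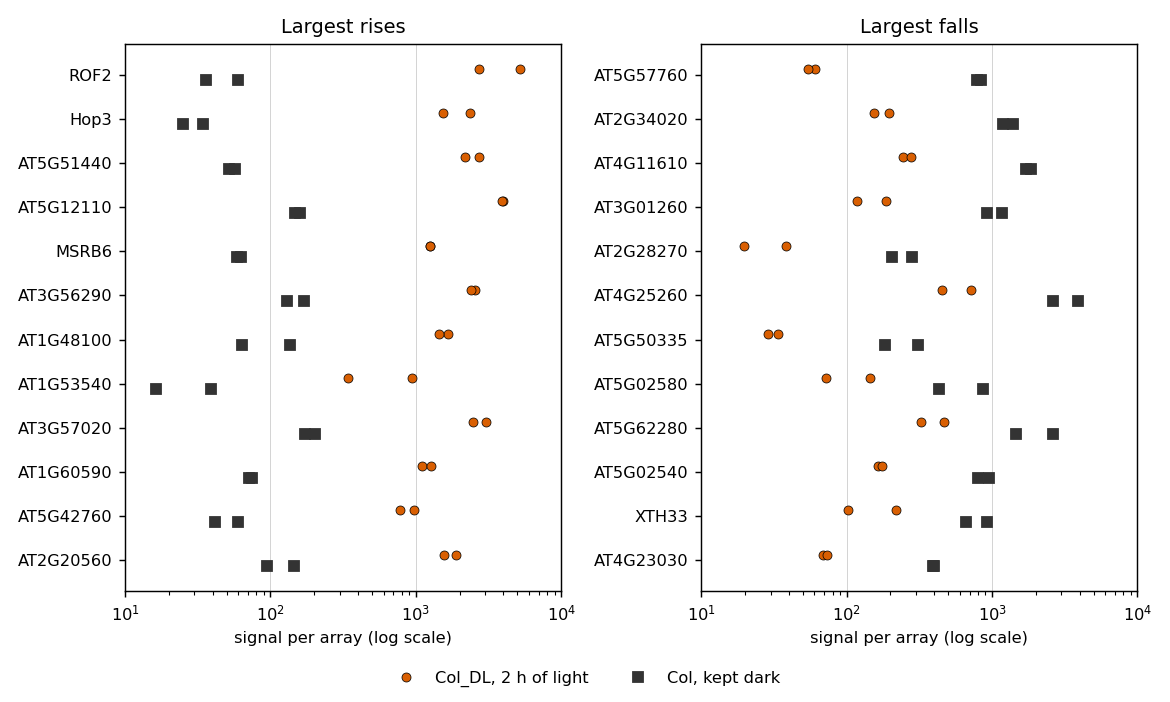
Signal on each array for the 12 largest rises and the 12 largest falls among genes with 1 named locus, on a log x axis, with Col_DL as orange circles and Col as black squares. The 24 genes were chosen only among those whose Col_DL and Col arrays do not overlap. The change is largest for ROF2, at 5234 and 2725 in Col_DL, against 59.8 and 36.3 in Col.

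Of the 12 largest falls among probe sets that match 1 gene, 1 carries a gene name. AT5G57760 read 61 and 54.3 signal units in Col_DL, against 837 and 792 in Col, which is 11.3-fold lower (log2 -3.50 ± 0.25, adjusted p = 9.91e-07). AT2G34020 fell by 2.78 ± 0.20 on the log2 scale and AT4G11610 by 2.70 ± 0.21. AT3G01260, AT2G28270, AT4G25260, AT5G50335, AT5G02580, AT5G62280, AT5G02540 and AT4G23030 fell too, with log2 changes between -2.68 and -2.25. The named gene, XTH33 (AT1G10550), codes for a xyloglucan endotransglucosylase/hydrolase of the cell wall and read 102 and 219 in Col_DL, against 664 and 924 in Col (log2 -2.26 ± 0.55). Its call was lost without replicate 1 of Col_DL (adjusted p = 0.0887) or replicate 2 of Col (0.0688).

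Among genes with a symbol, 1306 were tested, 141 rose and 160 fell. After ROF2, Hop3 and MSRB6, the largest rises of genes with a name were those of THI2.2 (AT5G36910), a thionin, which read 273 and 514 in Col_DL, against 16.1 and 23.5 in Col, of UGT84A1 (AT4G15480) and UGT78D2 (AT5G17050), glycosyltransferases of phenolic compounds, and of AFR, Fes1A and AOR, described with their groups. THI2.2, UGT84A1 and CYP718, and AT1G53540 among the loci above, passed the filter on low signal only through the wild-type arrays where they are high. These include BL-treated arrays, so the filter favoured their direction. For UGT84A1, which needed the Col_DL arrays to pass, it fixed the direction. After XTH33 the largest falls were those of COR27, CYP718, ATL8, AGL80, FHL, scpl40 and WAG2. ATL8 (AT1G76410), a RING-type protein, read 492 and 414 in Col_DL, against 2174 and 1594 in Col. scpl40 (AT3G63470), a serine carboxypeptidase-like protein, read 68.7 and 90.0 in Col_DL, against 313 and 392 in Col. The falls of CYP718 (AT2G42850), a cytochrome P450, and AGL80 (AT5G48670), a MADS-box factor, rest on low signals, of 5.6 and 30.9 in Col_DL, against 152 and 89.3 in Col for CYP718 and 6.8 and 16.4 in Col_DL, against 87.8 and 97.9 in Col for AGL80, so that the added constant sets much of the change. CYP718 was lost without replicate 1 of Col_DL or either Col array (adjusted p = 0.25, 0.204 and 0.0818), and AGL80 without any 1 of the 4 arrays (adjusted p between 0.0759 and 0.167).

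The genes were also read in groups by role, formed from the symbols after names and values had been seen. The groups hold only probe sets that passed the filter on low signal. Each count is therefore a description, to be read beside the 10.1% and 9.76% of all probe sets that rose and fell. The share that fell was larger at high dark signal. It was 1.1% where the mean dark signal was at most 103 and 18.3% where it was at least 1024.8. The shares that rose there were 7.56% and 10.6%. Groups with high dark signal thus have a background of falls above 9.76%, and no count was matched for dark signal. Of the 22 shorter lists of locus identifiers, 20 had a tested member with a symbol. These lists held 432 genes, of which 88 have a probe set named for them in the annotation used, and 74 were tested and carry a symbol. A further 8730 probe sets carry no gene name here, so listed genes that are not counted may still be on the array. The group counts therefore cover only the named part of each pathway. Of these 74, 34 rose and 15 fell, and listed genes without a symbol were not counted.

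Of the 10 tested genes of light signalling and the clock, 4 rose and 2 fell, the first set being AFR, HYH, GI and XCT and the other COR27 and FHL. All 6 calls held when any 1 of the 4 arrays was left out. AFR (AT2G24540), an F-box protein of phytochrome A signalling, read 1581 and 2005 signal units in Col_DL, against 145 and 259 in Col (log2 3.09 ± 0.24). HYH (AT3G17609), the bZIP factor closest to HY5, read 406 and 548 in Col_DL, against 56.4 and 78.2 in Col, and its change was almost the same within replicate 1 (2.54) and replicate 2 (2.58). FHL (AT5G02200), which with FHY1 carries phytochrome A into the nucleus, read 59.2 and 91.8 in Col_DL, against 275 and 410.0 in Col, a fall by 1.97 ± 0.28 on the log2 scale.

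The clock genes moved in both directions. GI (AT1G22770), GIGANTEA, an evening gene that couples the clock to light and flowering, read 3761 and 1528 signal units in Col_DL, against 747 and 214 in Col (log2 2.53 ± 0.52, adjusted p = 0.0038). Replicate 1 was higher than replicate 2 in both conditions, and the groups still did not overlap, with changes of 2.31 and 2.75 within the replicate numbers. COR27 (AT5G42900), a cold-regulated gene that acts in the clock, read 90.3 and 66.9 in Col_DL, against 421 and 347 in Col (log2 -2.09 ± 0.25). XCT (AT2G21150), XAP5 CIRCADIAN TIMEKEEPER, read 200.5 and 364 in Col_DL, against 83.4 and 86.8 in Col (log2 1.51 ± 0.26). TIC, TKL, LIP1 and FIO1, further genes of clock timing, did not pass, at 0.33, 0.07, 0.04 and -0.36.

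Genes of the photosynthetic apparatus rose together. All 8 tested nuclear genes of antenna, photosystem and plastid ATP synthase subunits rose, with a median log2 change of 1.28 beside -0.12 over all probe sets. PSAN (AT5G64040), a lumenal subunit of photosystem I, read 3778 and 4843 signal units in Col_DL, against 1253 and 1124 in Col (log2 1.84 ± 0.15, adjusted p = 2.28e-06). LHCB4.3 (AT2G40100), 1 of 3 genes of the antenna protein CP29, read 1107 and 1168 in Col_DL, against 332 and 311 in Col. LHCB4.2 (AT3G08940) read 9331 and 9141 in Col_DL, against 4015 and 3187 in Col, with a log2 change of 1.36 ± 0.13 beside 1.77 ± 0.18 for LHCB4.3. The difference between these changes was not tested, and signals of different probe sets cannot be compared as levels. PSBY (AT1G67740), of photosystem II, read 7345 and 7899.6 in Col_DL, against 2938 and 2583 in Col. PSAE-1, ATPC1, PSBW and LHCB4.1 rose by 1.19, 1.14, 0.78 and 0.68, the last of these being lost without replicate 1 of Col_DL or replicate 2 of Col (highest adjusted p = 0.0776).

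Enzymes of carbon fixation and photorespiration rose as well, 4 of 4. HPR (AT1G68010), the peroxisomal hydroxypyruvate reductase of photorespiration, read 6476 and 6932 signal units in Col_DL, against 1799.6 and 1056 in Col, and at 2.27 ± 0.21 its change was the largest of the 4. RCA (AT2G39730), rubisco activase, read 11215 and 9151 in Col_DL, against 5216 and 3573 in Col, and SBPASE (AT3G55800), a phosphatase of the Calvin cycle, read 4425 and 4441 in Col_DL, against 2219.9 and 1894 in Col. PRK (AT1G32060), phosphoribulokinase, read 5931 and 5428 in Col_DL, against 4578 and 2486 in Col (log2 0.75 ± 0.21). The PRK groups nearly meet, and its call was lost without replicate 1 or 2 of Col_DL (adjusted p = 0.105 and 0.0572) or replicate 2 of Col (0.21).

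Genes of cyclic electron flow, which hold subunits of the thylakoid NDH complex, factors for it and genes of the antimycin-sensitive route, showed 6 rises and 0 falls among 9 tested, with a median of 0.87. NdhN (AT5G58260), a subunit, read 601 and 718 signal units in Col_DL, against 309 and 211 in Col. PGRL1B (AT4G11960), of the antimycin-sensitive cyclic route, read 739 and 557 in Col_DL, against 272 and 234 in Col. CRR21 (AT5G55740) and CRR28 (AT1G59720), pentatricopeptide proteins that edit plastid ndh transcripts, rose by 1.28 ± 0.29 and 1.21 ± 0.34, and NdhS and CRR42 by 0.77 and 0.87. CRR21 was lost without replicate 2 of Col_DL (adjusted p = 0.063) and CRR28 and CRR42 without any 1 of the 4 arrays (highest adjusted p = 0.112 and 0.182). Fewer genes of photosystem and cytochrome assembly passed, 2 of 8. PSB27 (AT1G03600), which binds photosystem II during assembly and repair, read 6164 and 6122 in Col_DL, against 3072 and 2313 in Col (log2 1.20 ± 0.14). CCB3 (AT5G36120), of haem attachment to cytochrome b6, rose by 0.87 ± 0.27 and was lost without either Col_DL array or replicate 1 of Col (adjusted p = 0.115, 0.116 and 0.236). LPA1, LPA2, LPA19, PAM68, LPA66 and HCF101 stood between -0.11 and 0.67.

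Chlorophyll and haem synthesis genes moved in both directions, with 3 rises and 1 fall among 10. PORB (AT4G27440), which reduces protochlorophyllide in a step that itself needs light, was the member that fell and read 3147 and 3740.0 signal units in Col_DL, against 8913 and 8101 in Col (log2 -1.30 ± 0.14, adjusted p = 2.83e-05). The rises were those of CHLM (AT4G25080), a methyltransferase of the magnesium branch, which read 4187 and 3871 in Col_DL, against 2486 and 1885 in Col, of HEME1 (AT3G14930), uroporphyrinogen decarboxylase, by 1.05 ± 0.18, and of CHLI2 (AT5G45930), a subunit of magnesium chelatase, by 1.12 ± 0.28. CHLI2 read 406 and 947 in Col_DL, against 293 and 263 in Col, and its change was 0.45 within replicate 1 and 1.79 within replicate 2. It was lost without replicate 2 of Col_DL (adjusted p = 0.0928) or of Col (0.0688). The genes of early steps that were tested with a symbol did not pass: HEMA2, GSA1, HEMB1 and hemb2 stood at -0.43, -0.23, -0.03 and -0.28. Other genes of these steps have no named probe set here, so the early steps as a whole were not assessed.

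Of 69 plastid-encoded genes 2 rose and 0 fell, a share below that over all probe sets, and their median was 0.38, or 0.17 without replicate 2 of Col_DL and 0.57 without its replicate 1. psbD (ArthCp017), the D2 protein of the photosystem II core, read 751 and 959.5 in Col_DL, against 235 and 411 in Col (log2 1.40 ± 0.34). psbF (ArthCp038), a subunit of cytochrome b559, read 4415 and 6590.1 in Col_DL, against 2727 and 3322 in Col (log2 0.84 ± 0.20). Both calls were lost without replicate 2 of Col_DL (adjusted p = 0.0715 and 0.0886) or replicate 1 of Col (0.0984 and 0.0692). The group's median change was 0.27 within replicate 1 and 0.68 within replicate 2.

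Of the genes of flavonoid and anthocyanin synthesis that passed the filter on low signal, 7 of 7 rose, with a median of 2.56. UGT84A1 passed that filter only through the lit wild-type arrays and so had to rise. Without it, 6 of 6 rose and the median was 2.1. UGT78D2 (AT5G17050), which glucosylates flavonols and anthocyanidins, read 1893 and 2265 signal units in Col_DL, against 172 and 179 in Col, a 10.9-fold rise. CHIL (AT5G05270), a chalcone isomerase-like protein of the entry to the pathway, read 944 and 1769 in Col_DL, against 161 and 168 in Col (log2 2.86 ± 0.30). UF3GT (AT5G54060), which adds xylose to anthocyanins, read 549.9 and 1314 in Col_DL, against 118 and 145 in Col (log2 2.56 ± 0.38). UGT84A1 (AT4G15480), which glucosylates hydroxycinnamic acids, read 187 and 237 in Col_DL, against 5.1 and 4.2 in Col; its dark signal lay below the added constant, so its log2 change of 3.46 ± 0.38 depends on that constant. DFR (AT5G42800), dihydroflavonol reductase, UGT78D1, a flavonol rhamnosyltransferase, and AT5MAT, which adds malonate to anthocyanins, rose by 1.63, 1.61 and 1.33. AT5MAT was lost without replicate 2 of Col_DL or either Col array (highest adjusted p = 0.278). All 7 changes were larger within replicate 2 than within replicate 1, as were all 12 of the antenna, photosystem, ATP synthase, Calvin cycle and photorespiration genes, whereas 1647 of all 3526 calls were larger within replicate 1.

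The wider family of UDP-glycosyltransferases moved both ways, with 15 rises and 7 falls among 41 tested of 51 named, UGT84A1 among the rises. UGT76E11 (AT3G46670) read 298 and 767 in Col_DL, against 54.1 and 81.7 in Col (log2 2.58 ± 0.36), and UGT71B1 rose by 2.03. The falls were led by UGT72E1 (AT3G50740), a monolignol glucosyltransferase, at -1.78, with its relative UGT72E2 at -0.88. In the UGT71C subfamily UGT71C2, UGT71C3 and UGT71C5 fell (-1.70, -1.20 and -1.37), UGT71C1 did not pass (-0.88) and UGT71C4 rose (1.12). UGT72E1, UGT72E2, UGT71B1 and the UGT71C genes were picked out after their values were seen.

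Chaperones and co-chaperones rose in 14 of 22 genes and fell in 1, with a median of 1.05. After ROF2 and Hop3 the largest change was that of Fes1A (AT3G09350), which protects cytosolic Hsp70 during heat, at 2914 and 1919 signal units in Col_DL, against 274 and 289 in Col (log2 3.0 ± 0.24). Cpn60beta2 (AT3G13470), a chaperonin subunit of the chloroplast, read 4654 and 5151 in Col_DL, against 844 and 864 in Col, and its paralogues Cpn60beta3 and Cpn60beta4 did not pass (0.42 and 0.34). SGT1A, an Hsp90 co-chaperone, HSA32, needed for lasting heat tolerance, Hsp70-2, the cyclophilin SQN and BOB1 rose by 2.05, 1.97, 1.52, 1.23 and 1.16. Members of 1 family differed: of Hop1, Hop2 and Hop3 the first did not pass (-0.24) and Hop2 rose by 1.15, and of the Fes1 genes Fes1B did not pass (-0.38) and Fes1C fell (-0.60). Hop2 was lost without replicate 1 of Col_DL or replicate 2 of Col (highest adjusted p = 0.0577), Fes1C without replicate 2 of either group (0.109) and SQN without replicate 2 of Col_DL (0.0518). ATHSP22.0, a small heat shock protein, read 393 and 244 in Col_DL, against 146 and 171 in Col and did not pass. The large rises given above by locus identifier alone were not sorted into this group, which may therefore lack chaperone genes. Many chaperone genes respond to heat, and any warming during the move cannot be told apart from the light.

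Genes of redox control moved mostly upward where they passed. Among 15 thioredoxins, glutaredoxins and methionine sulfoxide reductases 6 rose and 1 fell, and the median was 0.08. TRXF2 (AT5G16400), a plastid thioredoxin that activates Calvin cycle enzymes, read 591 and 754 in Col_DL, against 281 and 242 in Col, and NTRC (AT2G41680), the NADPH-driven plastid thioredoxin reductase, read 803 and 848 in Col_DL, against 482 and 350.2 in Col. MSRB5 rose by 0.91, while MSRB9 (AT4G21850), of the same family as MSRB6, read 1483 and 2106 in Col_DL, against 4011 and 4492 in Col, a fall by 1.26 ± 0.19. Of 11 antioxidant and carbonyl-detoxifying enzymes 6 rose and 1 fell. AOR (AT1G23740) read 2512 and 3582 signal units in Col_DL, against 398 and 379.6 in Col (log2 2.90 ± 0.17). GR1 (AT3G24170), a glutathione reductase, read 5721 and 5297 in Col_DL, against 1656 and 2263 in Col, and GME (AT5G28840), an epimerase of ascorbate synthesis, read 3795 and 4341 in Col_DL, against 2380.4 and 1867 in Col. AER (AT5G16970), an alkenal reductase, rose by 0.94 ± 0.28 and was lost without either Col_DL array or replicate 1 of Col (adjusted p between 0.064 and 0.248).

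In the mitochondrion single members of gene pairs rose. CYTC-2 (AT4G10040), cytochrome c, read 1705 and 2366 in Col_DL, against 308 and 634 in Col (log2 2.14 ± 0.26), and CYTC-1 did not pass (-0.18). SDH2-1 (AT3G27380), the iron-sulphur subunit of succinate dehydrogenase, read 4716 and 5345 in Col_DL, against 1956 and 2455 in Col, and SDH2-2 did not pass (-0.14). NDB2 (AT4G05020), an alternative NADH dehydrogenase, rose by 1.02 ± 0.20 and NDB1 (AT4G28220) of the same family fell by 0.79 ± 0.20, a call lost without replicate 1 of Col_DL (adjusted p = 0.0947) or of Col (0.0988). Altogether, 5 of 15 respiration genes rose and 1 fell, and the median was -0.18.

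**Figure D3:**
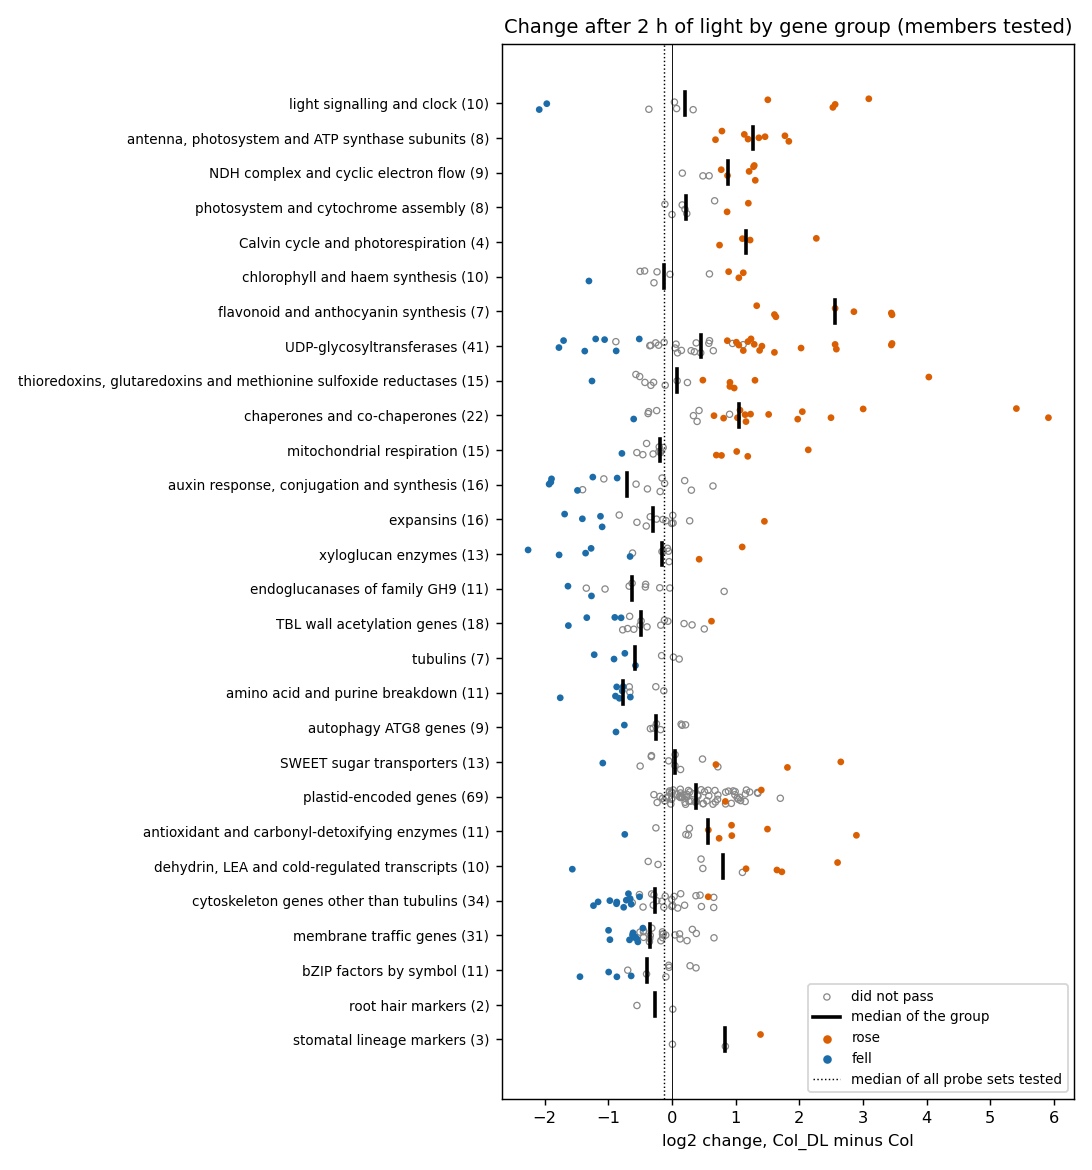
The log2 change of every tested member of 28 gene groups, Col_DL minus Col, with orange points for members that rose, blue for those that fell, open circles for those that did not pass, a black bar for the group's median and the number of members in brackets; the dotted line is the median of all probe sets, -0.12. The flavonoid median is 2.56, and 2.1 without UGT84A1, and the auxin, tubulin and amino acid breakdown groups hold no member that rose.

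Where auxin genes passed, they fell. Of 16 genes of auxin response, conjugation and synthesis 6 fell and 0 rose, and the median was -0.71. GH3.3 (AT2G23170), which conjugates auxin to amino acids, read 69.8 and 96.1 signal units in Col_DL, against 393 and 313 in Col (log2 -1.90 ± 0.19, adjusted p = 1.43e-05). IAA29 (AT4G32280), an Aux/IAA repressor that is high in etiolated and shaded seedlings, read 65.2 and 98 in Col_DL, against 382 and 304 in Col. HAT2 (AT5G47370), a homeodomain factor induced by auxin, read 387 and 529 in Col_DL, against 1528 and 1096 in Col. WAG2 (AT3G14370), a kinase that directs auxin transport, read 219 and 627 in Col_DL, against 1712 and 1255 in Col; its Col_DL arrays lay far apart, and the change was -2.88 within replicate 1 and -0.98 within replicate 2. IAA20 and GH3.17 fell to a lesser degree (-1.24 and -0.86), and IAA20 was lost without replicate 2 of Col_DL or either Col array (highest adjusted p = 0.093). The synthesis genes YUC2, YUC4 and YUC6 did not pass (0.30, -0.16 and -0.12). In 5 of the 6 falls the change was larger within replicate 1.

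In the cell wall families most calls were falls. Of 16 tested expansins 4 fell and 1 rose, and of 13 xyloglucan enzymes 5 fell and 2 rose. The median log2 changes of these families were -0.29 and -0.16, beside -0.12 over all probe sets. XTH19 (AT4G30290) read 666 and 1213 signal units in Col_DL, against 2783 and 3482 in Col (log2 -1.77 ± 0.27), and CSLC04 (AT3G28180), which makes the xyloglucan backbone, read 777 and 1359 in Col_DL, against 2579.5 and 2430.2 in Col. EXPA9 (AT5G02260) read 1139.9 and 1545 in Col_DL, against 3288 and 3829 in Col, and EXLA2 (AT4G38400) read 143 and 338 in Col_DL, against 787 and 711 in Col. EXPA16 (AT3G55500) went the other way and read 322 and 535 in Col_DL, against 161 and 125 in Col (log2 1.45 ± 0.28), as did XTH32 (1.1), whose call was lost without replicate 2 of Col_DL or replicate 1 of Col (highest adjusted p = 0.158). XTH20 (AT5G48070) fell by 1.36 ± 0.41 and was lost without either Col_DL array or replicate 2 of Col (adjusted p = 0.132, 0.0795 and 0.227), and EXPA20 (AT4G38210) fell by 1.12 ± 0.25 and was lost without replicate 2 of Col (0.0633).

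Among GH9 endoglucanases 2 of 11 fell and 0 rose. GH9B13 (AT4G02290) read 909.6 and 839 in Col_DL, against 3013 and 2499.6 in Col (log2 -1.63 ± 0.20). GH9B12 (AT2G44570) fell by 1.26 ± 0.36 and was lost without replicate 2 of Col_DL or either Col array (adjusted p between 0.0833 and 0.121). Of 18 tested TBL genes, whose products include acetyltransferases of wall polymers, 4 fell and 1 rose. TBL45 (AT2G30010) read 179 and 219 in Col_DL, against 563 and 739 in Col, and AT2G31110, placed in the family by its description, fell by 1.34 ± 0.23. TBL35 and TBL18 fell by 0.90 ± 0.21 and 0.80 ± 0.20, TBL35 losing its call without replicate 1 of Col_DL (adjusted p = 0.0752) and TBL18 without replicate 2 of Col_DL (0.12) or replicate 1 of Col (0.0697).

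Of 7 tubulin genes the 4 that fell all code for beta-tubulin, and 0 rose. TUB5 (AT1G20010) read 1118 and 1315 signal units in Col_DL, against 2713 and 2991 in Col (log2 -1.22 ± 0.19). TUB1 (AT1G75780) read 1208 and 1749 in Col_DL, against 2886 and 2613 in Col, and TUB6 (AT5G12250) and TUB9 (AT4G20890) fell by 0.74 ± 0.13 and 0.57 ± 0.12. TUA1, TUA6 and TUB7 did not pass (0.02, -0.16 and 0.11). Other cytoskeleton genes showed 11 falls and 1 rise among 34. WLIM1 (AT1G10200), a LIM protein that bundles actin, read 1565 and 1099.6 in Col_DL, against 3020.3 and 2887 in Col. CRK (AT4G01710) (CROOKED), a subunit of the ARP2/3 complex that branches actin, read 95.7 and 131 in Col_DL, against 226 and 359 in Col. WLIM1 kept its call when any 1 array was left out and the other 11 did not, CRK for example being lost without replicate 1 of Col_DL (adjusted p = 0.0673) or replicate 2 of Col (0.0902). Membrane traffic genes, such as exocyst subunits and prenylated Rab acceptors, showed 10 falls and 0 rises among 31, led by PRA1.B6 (AT5G07110) at -1.0 ± 0.23. None of these 10 calls held without every array in turn, the adjusted p of PRA1.B6 being 0.0513 without replicate 1 of Col_DL.

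Genes of amino acid and purine breakdown fell in 7 of 11 cases and rose in 0, and the median was -0.77. MCCA (AT1G03090), a subunit of the methylcrotonyl-CoA carboxylase of leucine breakdown, read 904 and 428 signal units in Col_DL, against 3426 and 1336 in Col; replicate 1 was higher in both conditions and the changes within replicates were -1.90 and -1.61. ALDH6B2 (AT2G14170), of valine breakdown, read 1783 and 1535 in Col_DL, against 3953 and 2391 in Col. AAH (AT4G20070) and ALN (AT4G04955), allantoate amidohydrolase and allantoinase, which recover nitrogen from purines, fell by 0.87 ± 0.19 and 0.83 ± 0.18. MCCA was lost without replicate 2 of Col_DL (adjusted p = 0.116) or replicate 1 of Col (0.125) and AAH without replicate 2 of Col (0.0535). IVD, ASPGA1 and MGL, further enzymes of amino acid breakdown, also fell (-0.78, -0.77 and -0.65), IVD and MGL being lost without replicate 1 of Col (adjusted p = 0.0709 and 0.0672). Of 9 ATG8 genes of autophagy 2 fell, ATG8F (AT4G16520), which read 3339 and 2825 in Col_DL, against 5397 and 5945 in Col, and ATG8G (AT3G60640), by 0.75 ± 0.21, the second being lost without replicate 1 of Col_DL (adjusted p = 0.14) or replicate 2 of Col (0.229).

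Sugar transporters of the SWEET family included 3 rises and 1 fall among 13 tested, with a median of 0.05. SWEET2 (AT3G14770), of the vacuolar membrane, read 3313 and 2382 signal units in Col_DL, against 467 and 403 in Col (log2 2.65 ± 0.20). SWEET16 (AT3G16690), also vacuolar, read 462 and 461 in Col_DL, against 899 and 1108 in Col, a fall by 1.09 ± 0.16. SWEET4 (AT3G28007) rose by 1.81 ± 0.47 and was lost without replicate 2 of Col_DL (adjusted p = 0.148) or replicate 1 of Col (0.0884), and SWEET1 (AT1G21460) rose by 0.69 ± 0.15.

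Markers of single tissues gave few calls. The root hair expansins EXPA7 (AT1G12560) and EXPA18 (AT1G62980) did not pass and read 164 and 205 in Col_DL, against 140.3 and 234 in Col for the first and 207 and 289 in Col_DL, against 238 and 561 in Col for the second. SPCH (AT5G53210), the factor that starts the stomatal lineage, rose by 1.38 ± 0.33 at a low signal (104 and 119 in Col_DL, against 48.7 and 21.3 in Col), and was lost without replicate 2 of either group (adjusted p = 0.0611 and 0.104). FMA, of the same lineage, did not pass (0.01). Nor did STOMAGEN (0.84), which was grouped with them but is not taken as a marker of the lineage. In whole seedlings, fewer cells of a type and less RNA per cell cannot be told apart.

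To ask whether the response depends on added hormone, the same step into light was taken in BL-treated seedlings, on 4 other arrays. There 3087 probe sets passed (17.4%), and 2289 passed in both settings, 64.9% of the calls without BL and 74.1% of those with BL. None of these went in opposite directions, and the 2 sets of log2 changes correlated at 0.839 across probe sets that share no array between the settings but share a chip design. In the test of the difference between the responses (limma), 0 probe sets passed, 662 had an unadjusted p below 0.05, and the smallest adjusted p was 0.074. This does not show that the responses are alike. For ROF2 the difference was 0.21 ± 0.49, for HYH -0.79 ± 0.38 and for UGT78D2 0.83 ± 0.32, in each case the change without BL minus the change with BL. Some named genes differed more, though none passed. AT5G50335 changed by -2.42 ± 0.33 without BL and by 0.12 ± 0.33 with BL, a difference of -2.54 ± 0.47. EXPA16 changed by 1.45 ± 0.28 and 0.25 ± 0.28, a difference of 1.20 ± 0.40. UGT78D2 read 2509.5 and 2662 in Col_BR_DL, against 498 and 335 in Col_BL. PORB read 6189.8 and 5031 in Col_BR_DL, against 8302 and 9543 in Col_BL (log2 -0.67 ± 0.14), and the difference of -0.63 ± 0.20 did not pass.

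**Figure D4:**
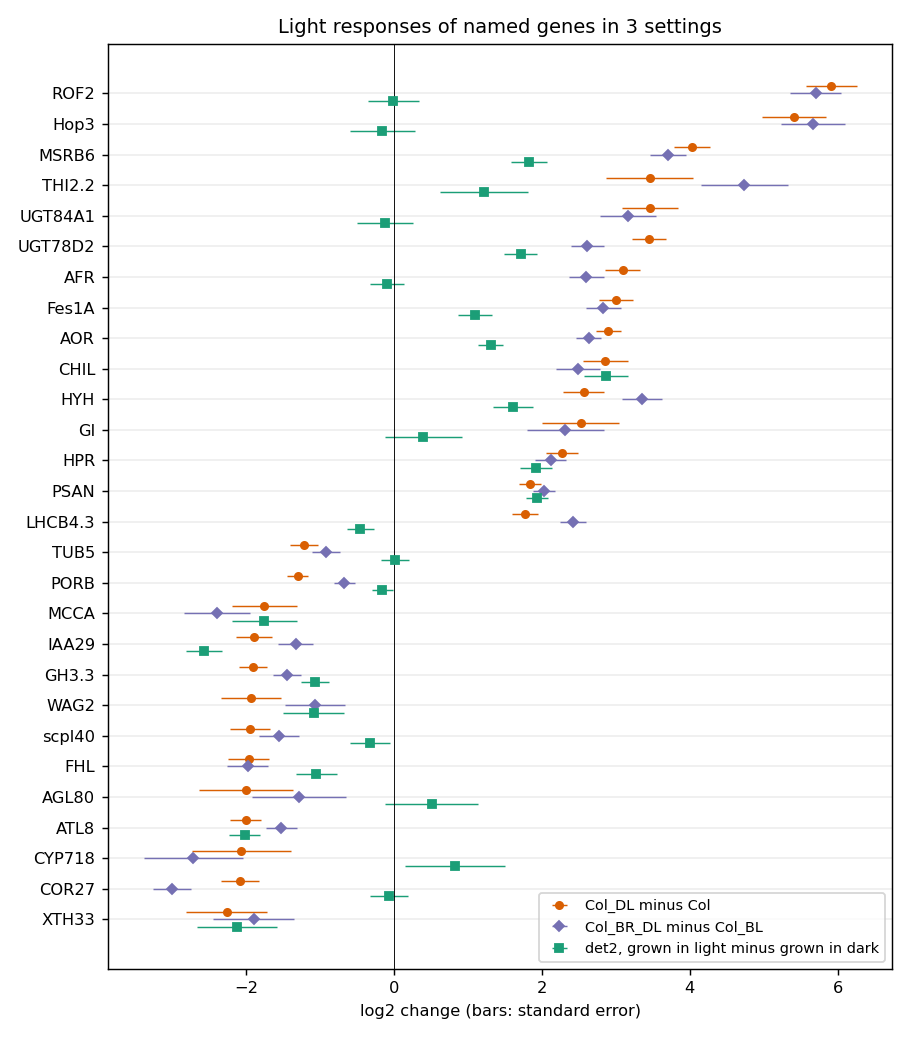
Log2 changes of 28 named genes in 3 settings, with orange circles for Col_DL minus Col, purple diamonds for Col_BR_DL minus Col_BL and green squares for det2 grown in light minus det2 grown in darkness; bars are standard errors of the fit. ROF2 and Hop3 stand above 5 in both wild-type settings and at -0.01 and -0.16 in det2, and PSAN lies between 1.84 and 2.03 in all 3.

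Growth in light was compared with growth in darkness in det2, where 37.2% of probe sets passed (19.5% upward and 17.7% downward). Across probe sets the log2 changes correlated with those in wild type at 0.215. This setting differs both in genotype and in the length of the light, so that these cannot be told apart. Of the 1790 rises after 2 h in wild type, 816 also rose in det2 (45.6% of them and 23.5% of the det2 rises), 232 fell and 742 did not pass. Of the 1736 falls, 633 fell in det2 (36.5% of them and 20.1% of the det2 falls), 222 rose and 881 did not pass. In the test of the difference (limma), 4266 probe sets (24%) passed, a count that was 2707 without replicate 2 of det2_light.

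Named genes fell into those whose change differed between the settings and those where no difference passed. PSAN changed by 1.84 ± 0.15 in wild type and 1.93 ± 0.15 in det2, and HPR by 2.27 ± 0.21 and 1.92 ± 0.21, differences of -0.10 ± 0.21 and 0.35 ± 0.30 (adjusted p = 0.777 and 0.439). ROF2 changed by -0.01 ± 0.35 in det2, with 157 and 171 in light-grown det2, against 189 and 144 in dark-grown det2, and the difference from wild type was 5.92 ± 0.49 (adjusted p = 5.12e-06). Hop3 and AFR likewise did not pass in det2 (-0.16 ± 0.44 and -0.10 ± 0.24), and both differences passed (adjusted p = 4.86e-05 and 3.18e-05). LHCB4.3 read 475 and 529 in light-grown det2, against 793 and 604 in dark-grown det2, and its difference of 2.23 ± 0.25 passed (adjusted p = 5.44e-05), while that of LHCB4.2 was 0.56 ± 0.18 (adjusted p = 0.037). Of the 69 plastid-encoded genes, 33 fell and 1 rose in light-grown det2, and in 25 the difference from wild type passed.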

How the data were processed

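Total RNA of whole seedlings was biotin-labelled and hybridised to 1-colour Affymetrix arrays, per the labels' protocols, and MAS5 and limma are named, without versions, in the submitters' processing notes. The deposited values are linear intensities, 22810 probe sets on 14 arrays, that the authors had already brought to a common level: rescaling each array to a trimmed mean of 500, leaving out 2% at each end, moved no value by more than 8.82e-05 of itself. Scanner images and detection calls were not used here.

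After leaving out 64 control probe sets, 17787 whose mean signal across all 14 arrays reached 50 were tested, and 4959 below that were not. Changes are differences of log2(value + 16), which understate changes at low signal. They were fitted with limma 3.58.1 in R 4.3.3 (lmFit and eBayes with a variance trend, 1 mean per group over the 14 arrays of 7 groups), with Benjamini-Hochberg adjustment over all probe sets tested and a threshold of 0.05. Differences between responses are interaction contrasts of the same fit. The code was tested on simulated data.

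Gene names came from the platform annotation: 14016 probe sets were listed, 13513 of them with 1 gene and 503 with several, 13436 matched the RefSeq table of TAIR10.1 and 1551 had a symbol. Probe sets with several genes or without annotation are not named, and for genes with several probe sets the one with the highest mean was used. The genes named are the 12 largest rises and falls, the 8 largest rises and falls with a symbol, up to 4 passing members of each group (at most 2 where none passed), the measured light signalling and clock genes, and the 4 most positive and 4 most negative interactions that passed. Other names were chosen after their values were seen. Members and lists were chosen with earlier results of these data known. Replicate numbers link arrays only by their titles, and the check of this is given with the alternatives: the constant, the filter, the normalization, the variance trend, the arrays fitted, a replicate block and each replicate left out. Sequences of genes and promoters were not used here.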

Additional observations from a re-analysis of the deposited data

Results flagged for a closer look

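The change after 2 h of light in wild type and the difference between light-grown and dark-grown det2 differed for 4266 probe sets (interaction test, limma), 1849 with a more positive and 2417 with a more negative change in wild type. Genotype and length of light differ between these settings together. The largest named differences are given as the log2 change in wild type minus that in det2. They were positive for M17 (AT2G41260) at 8.62, LEA18 (AT2G35300) at 8.11 and LEA4-5 (AT5G06760) at 7.82, genes of late embryogenesis abundant proteins, and for AT2G28490 at 6.35. For these 3 LEA genes both light-grown det2 signals lie below the added constant of 16, which sets the size and the order of their differences. M17 read 1613 and 1952 in Col_DL, against 1352 and 3158 in Col, and 3.8 and 4.4 in light-grown det2, against 9287 and 9110.0 in dark-grown det2. LEA18 read 685 and 1080.4 in Col_DL, against 306 and 1203 in Col, and 1.4 and 2.0 in light-grown det2, against 3445 and 3514 in dark-grown det2. LEA4-5 read 1274 and 4124 in Col_DL, against 191 and 683 in Col, and 8.1 and 12 in light-grown det2, against 951 and 949.7 in dark-grown det2. In wild type only LEA4-5 of these passed, and it was lost without replicate 2 of Col_DL (adjusted p = 0.115) or replicate 1 of Col (0.114). The differences were negative for AT1G23130 at -8.05, AT3G16670 at -7.42, AT5G62360 at -6.15 and AT5G55450 at -6.10. AT1G23130, AT5G62360 and AT5G55450 passed the filter on low signal only through det2 arrays grown in light. The filter therefore favoured a negative difference for them. AT1G23130 read 10 and 7.0 in Col_DL, against 5.7 and 6.0 in Col, and 7157 and 7339.6 in light-grown det2, against 7.0 and 10 in dark-grown det2, so that here too the constant sets the size. AT3G16670 read 12.4 and 37.8 in Col_DL, against 77.5 and 55 in Col, and 12107 and 12362 in light-grown det2, against 104 and 168 in dark-grown det2.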

How the results depend on the processing

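The count of 3526 probe sets called after 2 h of light was 2253 with the 8 wild-type arrays alone (1315 rose and 938 fell) and 1647 with the 4 arrays alone (1050 and 597), where fewer arrays estimate the spread. It ranged from 2658 to 3008 when each of the 4 arrays was left out, and 1705 of the 3526 probe sets kept the call without any 1 of them. Leaving out 1 array leaves a lone sample that is assumed to vary like the other groups. The 166 calls in the gene groups became 99 with the 4 arrays alone and 133 to 146 with 1 array left out. Of 122 named genes that passed, 28 lost the call with the 4 arrays alone (CCB3, PRK, CHLI2, NTRC, NDB2, NDB1, TBL35, TBL18, TUB1, TUB6, TUB9, MCCA, ALDH6B2, AAH, ALN, ATG8G, SWEET1, psbF, AER, TRM28, TRM25, ARLA1B, AtSec20, ARLA1D, bZIP48, bZIP44, bZIP52 and AT3G16670). With a replicate block on the same 4 arrays 26 of these 28 passed, and bZIP52 and AT3G16670 did not. With the constant, the filter, the normalization or the variance trend changed, the count of probe sets stayed between 3235 and 3565. The balance of directions moved more: with quantile normalization 1831 rose and 1546 fell, beside 1790 and 1736 in the main fit. The median log2 change over all probe sets was then -0.08, beside -0.12 in the main fit. The difference from BL-treated seedlings gave 2 calls with a constant of 64, 5 with the replicate block and 0 with each array left out. The difference from det2 gave 2707 to 4079 calls with 1 array left out, the lower end without replicate 2 of det2_light and 2833 without its replicate 1.

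The replicate numbers are no stated pairing. Same-numbered wild-type arrays deviated together from their group means (6 correlations from 0.226 to 0.429), whereas those among det2 groups lay between -0.0326 and 0.0164, and between wild type and det2 between -0.0483 and 0.0417. A replicate block raised the light count to 4988 in all 14 arrays (2230 rose and 2758 fell). With the block the count was 3924 in the wild-type arrays and 3607 in the 4 arrays alone, and the det2 difference gave 5953. Some changes that did not pass changed sign with 1 array left out. EXPA18 ranged from -1.14 to 0.043, EXPA7 from -0.33 to 0.35, M17 from -0.83 to 0.39, LEA18 from -0.48 to 1.44 and AT2G28490 from -0.89 to 0.40, and EXPA7 stood at -0.14 without replicate 2 of Col_DL. The causes were not tested. Leaving out 1 of the 4 arrays moved 12 to 14 of the 28 gene group medians by more than the spread between replicate numbers. Of the 28 group medians 6 changed sign, those of light signalling and clock, chlorophyll and haem synthesis, thioredoxins and glutaredoxins, respiration, SWEET genes and root hair markers. The medians of the other groups kept their sign. They ran, for example, from 1.95 to 3.18 for flavonoid genes, 1.16 to 1.40 for antenna and photosystem genes and 0.76 to 1.09 for cyclic electron flow. The range was 0.97 to 1.15 for chaperones, -0.85 to -0.56 for auxin and -0.89 to -0.53 for amino acid and purine breakdown. That of chlorophyll and haem synthesis was -0.13, and 0.28 with a filter at a mean of 200. At low signal the added constant sets the size of a change, and 2 arrays a group leave small changes below the threshold. The motif counts planned for promoters were not run.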

Other observations

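Genes outside the groups above also passed, chosen here after their values were seen and all keeping their call when any 1 of the 4 arrays was left out. Among those tied to the thylakoid, CaS (AT5G23060), a calcium-sensing protein, read 1543 and 2373 in Col_DL, against 447 and 602 in Col (log2 1.85 ± 0.23), and TROL (AT4G01050), which anchors ferredoxin reductase, rose by 1.07 ± 0.18. FUG1 (AT1G17220), a plastid translation initiation factor, rose by 1.16 ± 0.17. The glucosinolate transporter GTR1 (AT3G47960) read 1080.4 and 1332 in Col_DL, against 409 and 374 in Col (log2 1.58 ± 0.18). SMZ (AT3G54990), an AP2-type repressor of flowering, rose by 1.64 ± 0.20, the ubiquitin ligase PUB19 (AT1G60190) by 2.42 ± 0.37 and the zinc-finger factor STZ (AT1G27730) by 1.48 ± 0.29. WSD1 (AT5G37300), a wax ester synthase, read 592 and 1562 in Col_DL, against 154 and 211 in Col (log2 2.32 ± 0.40). Among the falls, TCP15 (AT1G69690), a factor of cell growth and division, read 318 and 341 in Col_DL, against 786 and 846 in Col (log2 -1.27 ± 0.23). ARL (AT2G44080), a regulator of cell expansion, fell by 1.26 ± 0.21, XERICO (AT2G04240), a RING-type protein of abscisic acid metabolism, by 1.11 ± 0.19, and LBD16 (AT2G42430), a factor of lateral root initiation, by 0.94 ± 0.19.

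Of 10 dehydrin, LEA and cold-regulated transcripts 4 rose and 1 fell. COR47 (AT1G20440), a dehydrin, read 14115 and 13176 in Col_DL, against 6459 and 5725 in Col (log2 1.16 ± 0.17). LTI30 (AT3G50970) rose by 1.65 ± 0.29, and TIL (AT5G58070), a lipocalin, by 1.73 ± 0.17. OLEO3 (AT5G51210), an oleosin of oil bodies, fell by 1.57 ± 0.26. Of 11 tested bZIP factors named by number 4 fell and 0 rose, led by BZIP61 (AT3G58120), which read 261 and 314 in Col_DL, against 917 and 709 in Col (log2 -1.45 ± 0.19). The other 3, bZIP48, bZIP44 and bZIP52, were each lost without at least 1 of the 4 arrays (highest adjusted p = 0.333, 0.231 and 0.0663).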
